A study of Mus musculus with 12 samples.

Results

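The effect of losing Dock8 was measured in activated CD8+ T cells kept in plain media, with no collagen around them, by comparing 3 libraries from Dock8 KO mice with 3 from WT mice. These are the 6 media libraries of a series of 12, chosen by their genotype and treatment labels. The cells were taken from the spleen and lymph node of 3 mice in each group, were expanded in culture for 3 days after activation and then spent 24 h more in media. The other 6 libraries, 3 per genotype, spent the 24 h in bovine collagen at 2 mg/mL and are used here as a second measurement of the genotype difference. All groups share the cell type, the activation and the culture time. The labels name no strain, source, age, sex or litter of the mice and do not say how the KO allele was made. Genotype and mouse line therefore cannot be told apart. They also do not tie a library to a mouse, so the p-values measure the spread between these libraries.

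The product of Dock8 is an exchange factor that loads the small GTPase Cdc42 with GTP beneath the membrane of leukocytes. Cdc42 acts through WASP, the product of Was, to start branched actin filaments, and the kinase Mst1, the product of Stk4, signals through Mob1 to Dock8. Lymphocytes that lack DOCK8 are known for losing their shape and breaking while they crawl through dense tissue, and people who lack it have an immunodeficiency. Cells in media are under no confinement by collagen, so the comparison gives the genotype difference at baseline.

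Few transcripts passed the test between the genotypes. Of 19010 genes tested, 36 passed (0.189% of those tested), 5 higher in the KO cells (0.0263%) and 31 lower (0.163%), at a threshold of 0.05 on the Benjamini-Hochberg adjusted p of edgeR's quasi-likelihood test (below, edgeR adjusted p). The unadjusted p was under 0.05 in 1423 of the 19010 genes, the background for the list counts given below. Across all tested genes the median log2 fold change, KO minus WT, was −0.01. The called genes were Dock8 itself, a group of 8 neighbours on chromosome 14, a group at the boundary of the X and Y pseudoautosomal region, and 24 genes spread over other places. They included the metabolic enzyme Nnt, the endosomal proteins Wdfy1 and Rab4a and the chemokine receptor Ccr2, all higher in the KO cells. The change was at least 2-fold in 21 of the 36, and 27 of the 36 were protein coding. In all 36 the 3 KO libraries lay wholly above or wholly below the 3 WT libraries, as did 10.7% of all tested genes. With the replicate number as a block the count was 57 (14 higher, 43 lower) and held all 36.

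Every media library was from cells with T cell transcripts. They held 40335274 to 61390702 counts. Mitochondrially encoded genes took 1.34 to 1.63% of the counts in 5 libraries and 2.31% in KO media 2, and ribosomal RNA-like loci took 3.19 to 5.08% in 5 and 8.11% in KO media 3. Cd8a, which encodes a chain of the CD8 co-receptor, was at 517 to 744 CPM (the count times 1e+06 over the library's composition-scaled total), and the 5 CD8 T cell markers summed to 2190 to 2400 CPM in WT and 1990 to 2260 in KO. Of the markers of 7 other cell types, 0 in the sets used for this check were called, beside 0.189% of all tested genes. In sets this small 0 calls are likely and say little. In a wider list of CD4 and regulatory T cell markers, 6 tested, Ikzf2 was called lower. In a wider list of neutrophil and mast cell markers 0 of 5 tested were called. There 3 of the 5 had an unadjusted p under 0.05, as did 1423 of all 19010 tested genes. The B cell set summed to 901 to 1020 CPM in WT and 737 to 919 in KO, nearly all of it Ighm, while Ms4a1 and Pax5 were each below 0.1 CPM in every library. The macrophage and dendritic cell set summed to 25.3 to 47.7 CPM in WT and 47.7 to 58.1 in KO, mostly Itgax. The neutrophil and mast cell set summed to 4.31 to 7.61 CPM in WT and 5.82 to 8.9 in KO, with Mpo at 0, 0 and 0.0427 CPM in WT and 0.0787, 0.293 and 0.282 in KO (edgeR adjusted p 0.218). The erythroid and platelet set summed to 2.92 to 4.42 CPM in WT and 4.26 to 6.13 in KO, with Pf4 at 1.41, 0.418 and 0.512 CPM in WT and 1.2, 2.01 and 1.85 in KO (edgeR adjusted p 0.739). S100a9, Elane and Col3a1 were at 0 in all 6 libraries. Xist had 0 to 8 counts and the Y-linked Ddx3y 65.3 to 77.1 CPM, the pattern of male cells, in every media library.

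Dock8, on chromosome 19 (chr19:24999534-25202432, plus strand, GRCm38), was read at 363, 418 and 443 CPM in the WT libraries and at 126, 109 and 125 CPM in the KO libraries. The KO level was 29.4% of WT, 120 ± 9.83 against 408 ± 41.1 CPM (SD, n = 3 each), with no overlap. The log2 fold change was −1.77 (SE 0.09, 95% interval −1.96 to −1.57, edgeR adjusted p 9.29e-08). The transcript was thus lower and not absent. Counts per gene do not show which exons are left or whether the remaining RNA is translated.

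Among the genes whose products act with DOCK8, none examined here was called. Of 16 tested genes for DOCK8, its partners and the Hippo kinases, Dock8 alone was called, and the others lay between −0.10 and 0.15 on the log2 scale. Cdc42, the GTPase that DOCK8 loads, was at 455, 394 and 407 CPM in WT and 447, 501 and 449 in KO, and the groups overlapped (log2 difference 0.15, SE 0.07, edgeR adjusted p 0.666). Was gave −0.06 (SE 0.08), Wipf1, which encodes the WASP-binding protein WIP, −0.02 (SE 0.09), Stk4 −0.09 (SE 0.08), and Mob1a 0.04 (SE 0.06). A p that misses the threshold does not show equal levels, and these standard errors bound how large a difference could be missed. Of 11 tested members of the wider DOCK and ELMO family, 0 were called and 1 (Dock5) had an unadjusted p under 0.05. Dock2, the main exchange factor for Rac in lymphocytes, was at 767, 792 and 882 CPM in WT and 794, 651 and 742 in KO (−0.16, SE 0.09, edgeR adjusted p 0.714). Dock9, Dock10 and Dock11, whose products also act on Cdc42, gave 0.09 (SE 0.08), −0.03 (SE 0.10) and 0.02 (SE 0.09).

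Of 45 tested genes of the actin filament machinery, 0 were called, 4 had an unadjusted p under 0.05, and the median log2 difference was 0.02. The smallest p was that of Gsn, which encodes the filament-severing protein gelsolin (−0.33, SE 0.09, edgeR adjusted p 0.289). Actg1, which encodes cytoplasmic γ-actin, followed at 949, 957 and 925 CPM in WT and 1130, 1140 and 995 in KO (0.21, SE 0.08, edgeR adjusted p 0.576). Its KO libraries all lay above its WT libraries, at a difference that did not pass.

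**Figure D1:**
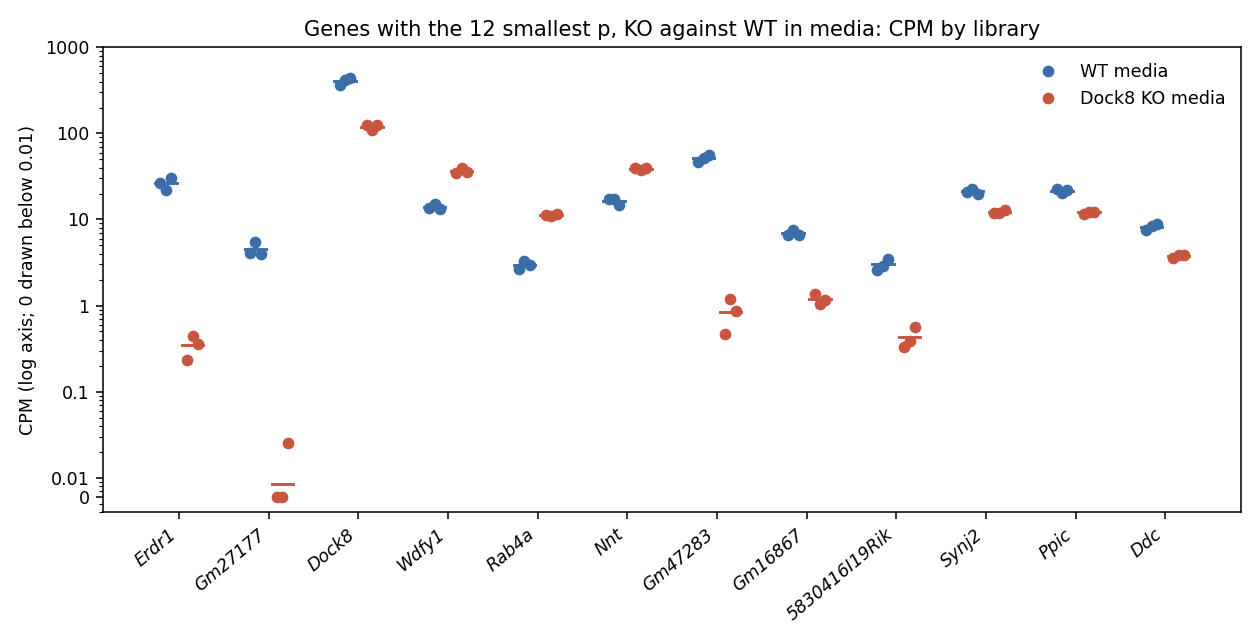
CPM in each of the 3 WT media (blue) and 3 Dock8 KO media (red) libraries, on a log axis, for the 12 genes with the smallest p, with a line at each group mean and values of 0 drawn below 0.01. In all 12 genes the groups do not overlap, and 3 genes (Wdfy1, Rab4a and Nnt) are higher in KO.

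The 5 genes called higher in the KO cells each had a role in metabolism, endosomes, migration or chromatin. Wdfy1 encodes a FYVE-domain protein of early endosomes that serves as an adaptor in toll-like receptor signalling. It was at 13.5, 15.1 and 13.4 CPM in WT and 35, 39.3 and 35.7 in KO. The KO libraries were 2.62-fold higher (log2 1.39, SE 0.08, edgeR adjusted p 1.4e-07). Rab4a encodes a GTPase that returns receptors from early endosomes to the surface. It was at 2.66, 3.27 and 2.97 CPM in WT and 11.3, 10.9 and 11.5 in KO, a 3.78-fold difference (log2 1.92, SE 0.11, edgeR adjusted p 1.4e-07). Its KO libraries stayed within 1 CPM of each other. Of 23 tested genes of endosomal Rabs and recycling, Rab4a alone was called, and of 17 genes of toll-like receptors and endosomal adaptors, Wdfy1 alone was.

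Nnt encodes the nicotinamide nucleotide transhydrogenase of the inner mitochondrial membrane, which makes NADPH. It was at 17.5, 17.4 and 14.9 CPM in WT and 39.3, 38.1 and 39.4 in KO. The KO libraries were 2.34-fold higher (log2 1.23, SE 0.07, edgeR adjusted p 2.03e-07). Of 29 tested antioxidant and NADPH genes no other was called. Next by p were Idh2, another mitochondrial source of NADPH (−0.27, SE 0.09, edgeR adjusted p 0.486), and the peroxiredoxin gene Prdx1 (0.22, SE 0.07, edgeR adjusted p 0.507).

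Ccr2 encodes the receptor for the chemokine CCL2. It was at 175, 166 and 143 CPM in WT and 228, 274 and 269 in KO, 1.59-fold higher (log2 0.67, SE 0.09, edgeR adjusted p 0.00325). The lowest KO library stood above the highest WT library. Ccr2 was the only call among 12 tested chemokine and egress receptors, although 8 of them had an unadjusted p under 0.05. Of all 19010 tested genes 1423 did. Ccr9, a gut-homing receptor, was at 3.6, 3.48 and 7.07 CPM in WT and 1.95, 1.03 and 1.97 in KO (−1.50, SE 0.44, edgeR adjusted p 0.437). With the replicate number as a block it passed (−1.46, edgeR adjusted p 0.0386). Hmgn5, an X-linked gene for a protein that binds nucleosomes, was at 37.8, 37.5 and 37.8 CPM in WT and 46.3, 49.8 and 46.2 in KO (1.26-fold, log2 0.33, SE 0.06, edgeR adjusted p 0.0272). Its call was lost in 9 of 16 alternative fits.

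On chromosome 14, 8 genes that lie close together were lower in the KO cells. They span 405.7 kb, chr14:69277601-69683286, a stretch whose limits were drawn from the called genes after their values were seen. No other tested gene lay wholly within it. Chromosome 14 as a whole had 8 calls in 802 tested genes (0.998%), so it had no call outside the stretch. Among the 8 are Entpd4 and Entpd4b, which encode nucleoside diphosphatases of the Golgi and lysosomes. In the GRCm38 reference with GENCODE M21 models several of these genes have a copy within the stretch. Entpd4 and Entpd4b, like Gm20236 and Gm37094, start 218250 bases apart, and Gm38378 and Gm37513 start 218275 bases apart. The sequences printed here, read from GENCODE M21 transcripts, show the identity of the copies. For the Entpd4 pair the first 150 coding bases are given, with the start codon in capitals (chr14:69347587-69349214 and chr14:69565837-69567464, plus strand, exons only).
Entpd4: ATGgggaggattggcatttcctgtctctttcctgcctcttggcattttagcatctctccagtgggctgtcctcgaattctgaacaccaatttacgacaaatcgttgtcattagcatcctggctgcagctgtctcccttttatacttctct
Entpd4b: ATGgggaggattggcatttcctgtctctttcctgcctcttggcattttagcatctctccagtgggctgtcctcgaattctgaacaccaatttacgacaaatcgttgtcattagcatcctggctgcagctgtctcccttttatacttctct

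For Gm38378 and Gm37513, unclassified transcript models on the minus strand, the first 150 bases are given (chr14:69397622-69397771 and chr14:69615897-69616046). They are shown because these models had no KO count in media.
Gm38378: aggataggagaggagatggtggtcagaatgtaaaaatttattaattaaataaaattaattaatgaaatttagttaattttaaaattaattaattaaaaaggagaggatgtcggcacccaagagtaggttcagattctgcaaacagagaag
Gm37513: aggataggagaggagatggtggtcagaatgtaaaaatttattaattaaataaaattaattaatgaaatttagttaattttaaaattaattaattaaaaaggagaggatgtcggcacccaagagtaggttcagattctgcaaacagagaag

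The identity runs over whole transcripts. Entpd4 and Entpd4b share 5 identical transcript pairs, the longest of 3589 bases, Gm20236 and Gm37094 are identical over 4540 bases, and Gm38378 and Gm37513 over 2268. Gm16867 and Gm27177 share a stretch of 2946 bases. Reads from such copies cannot be assigned to one of them, and how the authors' counting treated them is not given in the sources used here. The values of each copy are therefore uncertain, and the sums of the pairs are given too.

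Entpd4 was at 26, 26.4 and 25.4 CPM in WT and 17.5, 16.6 and 19.3 in KO (log2 −0.54, SE 0.09, edgeR adjusted p 0.0167). Entpd4b was at 23.1, 28.1 and 29.2 CPM in WT and 15.6, 14.9 and 14.2 in KO (−0.85, SE 0.10, edgeR adjusted p 0.000501). Summed, the pair stood at 49.1, 54.4 and 54.7 CPM in WT and 33.1, 31.5 and 33.5 in KO, which is 62% of WT. Both copies were lower in every KO library, and the KO cells kept most reads of the pair.

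The models without a known product fell further. Gm16867 was at 6.58, 7.52 and 6.62 CPM in WT and 1.35, 1.05 and 1.15 in KO, 17.2% of WT (log2 −2.52, SE 0.16, edgeR adjusted p 6.83e-07). Gm27177 had 645 counts in the 3 WT libraries and 1 in the 3 KO libraries, a ratio of 646 after scaling for depth (95% counting interval 116 to 25500, edgeR adjusted p 5.76e-08). Gm38378 had 55 counts in WT and 0 in KO, and Gm37513 had 83 and 0. Against a floor of 3 counts over the KO group they were at least 18.4-fold and at least 27.7-fold lower (edgeR adjusted p 0.00221 and 0.0022). Summed, Gm20236 and Gm37094 were at 2.83, 6.08 and 4.27 CPM in WT and 1.23, 1.25 and 1.21 in KO, 27.9% of WT (edgeR adjusted p 0.00706 for each alone). These intervals and floors cover counting error only.

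The genes on either side of the stretch were not called. Slc25a37, the mitochondrial iron importer whose gene span overlaps Gm20236, gave 0.27 (SE 0.07, edgeR adjusted p 0.296). On the other side R3hcc1 gave −0.05 (SE 0.11) and Chmp7, which encodes an ESCRT-III protein of the nuclear envelope, −0.02 (SE 0.08). Gm27177 is annotated antisense to Entpd4b and Gm16867 overlaps Entpd4 on the opposite strand. The strand setting of the counting is not given, so reads of such overlapping genes cannot be told apart.

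**Figure D2:**
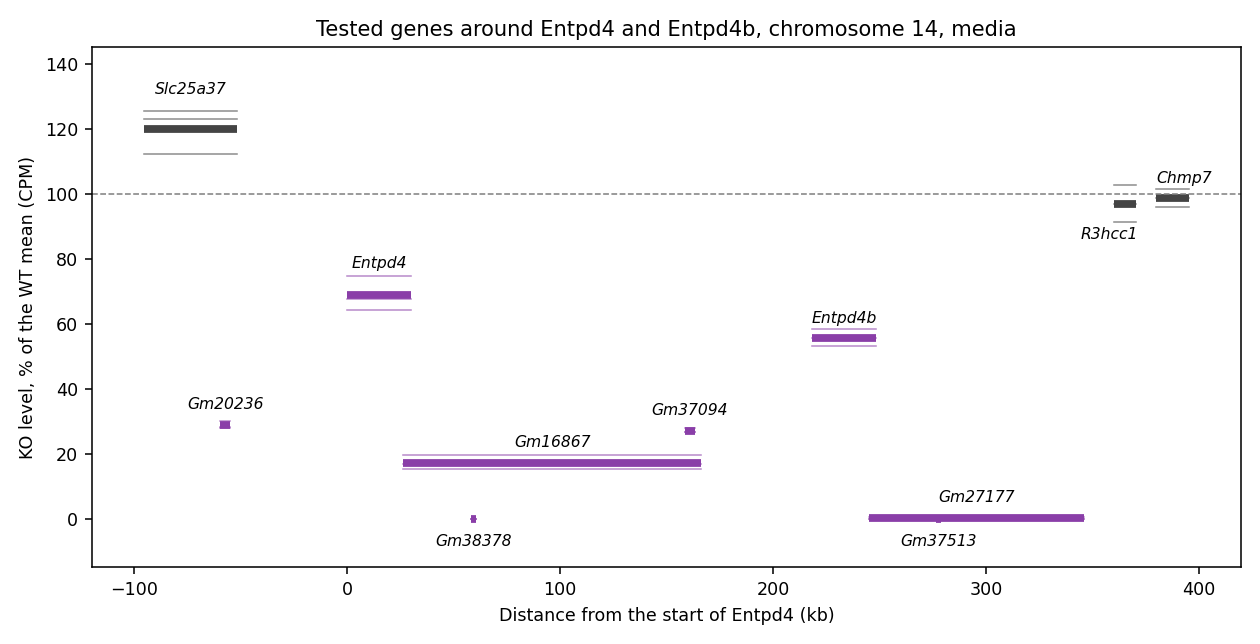
KO level as a percent of the WT mean for tested genes on chromosome 14, against the distance of each gene from the start of Entpd4 in kb; each thick bar spans a gene at its KO mean and thin lines are the 3 KO libraries. The 8 genes of the stretch (purple) lie between 0 and 68.7% and the flanking genes (grey) between 96.8 and 120%.

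At the end of the X chromosome and on the Y chromosome 3 genes near the pseudoautosomal boundary were called lower. Erdr1, named for a role in erythroid differentiation and placed by RefSeq at chrX:170010526-170018797, was at 26.5, 22.3 and 30 CPM in WT and 0.236, 0.44 and 0.359 in KO. The KO level was 1.31% of WT (log2 −6.30, SE 0.19, edgeR adjusted p 1.38e-10), the smallest p of all tested genes. Gm47283, a protein-coding model at chrY:90784738-90816464, was at 46.9, 52.2 and 56.5 CPM in WT and 0.472, 1.2 and 0.872 in KO, 1.63% of WT (−6.01, SE 0.30, edgeR adjusted p 4.11e-07). Every KO library of both genes was below 2 CPM. Gm47283 shares a stretch of 529 bases with Gm21887, which RefSeq lists as another name of Erdr1, so reads of these models may be exchanged.

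Mid1, which encodes a ubiquitin ligase bound to microtubules, ends 4.8 kb before Erdr1. It was at 6.67, 9.68 and 9.31 CPM in WT and 3.98, 4.21 and 3.77 in KO, 46.6% of WT (−1.10, SE 0.14, edgeR adjusted p 0.00227). Its copy on the Y chromosome, Mid1-ps1, had KO libraries below WT without passing (−1.27, SE 0.30, edgeR adjusted p 0.208), as did Gm21742 (−1.58, SE 0.34, edgeR adjusted p 0.125). Farther from the boundary the X-linked Hccs and Msl3 gave 0.20 (SE 0.10) and 0.02 (SE 0.05). The Y-linked genes Ddx3y, Kdm5d, Uty and Eif2s3y gave −0.07, −0.05, −0.10 and 0.07, and none was called.

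Around Dock8 itself no other gene was called. Within 1, 5 and 10 Mb on either side, 10, 54 and 99 other genes were tested with 0 calls. Of all tested genes 0.189% were called, so 0 calls are likely in windows of this size and say little about the region. The medians of the log2 fold changes in the windows were −0.05, −0.01 and −0.01. In the 10 Mb window 10 genes had an unadjusted p under 0.05, and DESeq2 and limma-voom also called 0. Cbwd1, the nearest tested gene, was at 9.2, 9.29 and 8.84 CPM in WT and 9.27, 9.51 and 10.3 in KO (0.09, SE 0.10). Smarca2, which encodes an ATPase of the SWI/SNF chromatin remodelers, gave −0.15 (SE 0.12). Gm23238, 6.3 Mb before Dock8, gave −0.88 without passing, and passed when no filter on low counts was applied.

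The 20 Mb window had 2 calls among 415 tested genes, beside 0.189% called of all tested genes. Tmem223, a gene for a membrane protein 16.2 Mb before Dock8, was at 9.46, 9.22 and 8.43 CPM in WT and 5.16, 3.67 and 4.31 in KO (−1.04, SE 0.15, edgeR adjusted p 0.00482). Plce1, which encodes phospholipase C epsilon and lies 13.3 Mb after Dock8, was at 1.24, 1.51 and 1.88 CPM in WT and 0.661, 0.538 and 0.436 in KO (−1.47, SE 0.23, edgeR adjusted p 0.0112). Both had KO libraries wholly below WT. With Dock8 they made 3 calls in 584 tested genes of chromosome 19 (0.514%).

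**Figure D3:**
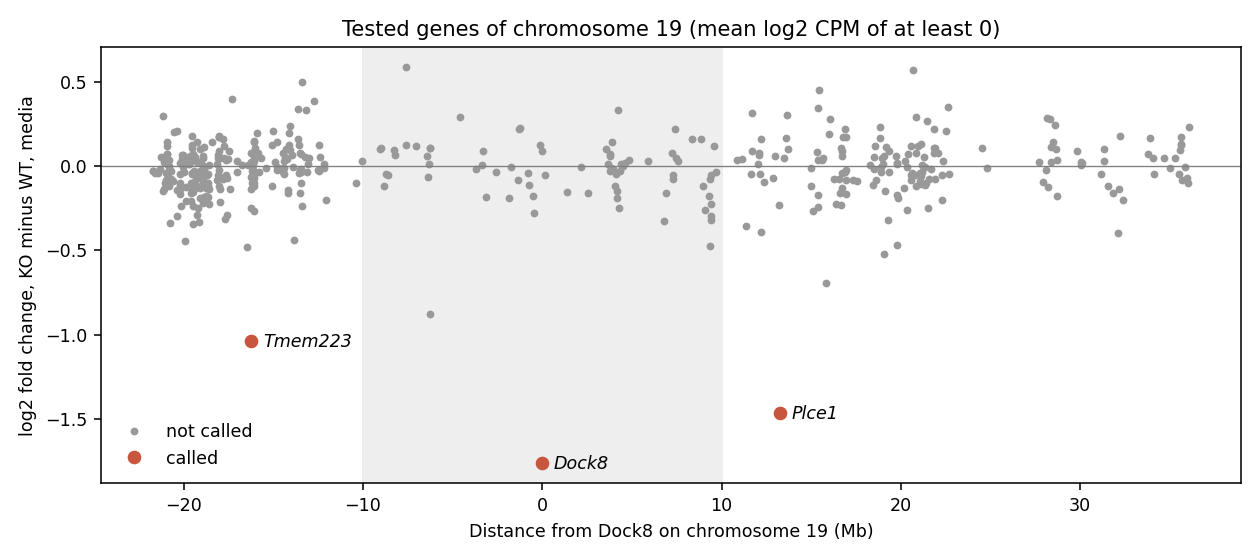
Log2 fold change, KO minus WT in media, of tested genes of chromosome 19 (mean log2 CPM 0 or more), against the distance from Dock8 in Mb; red points are called genes and the grey band marks 10 Mb on either side. In the band the only called gene is Dock8, while Tmem223 and Plce1 lie outside it.

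The called genes fell on 15 chromosomes, and chromosomes 3, 6, 10, 12, 15 and 16 had none. Of the 36, 14 had another called gene within 1 Mb and 22 had none. Besides the chromosome 14 stretch, close neighbours were Mid1 and Erdr1, Ikzf2 with Gm28112 inside it, and a pair on chromosome 5. In that pair Rell1, which encodes a membrane protein related to the receptor RELT, was at 27.1, 26.8 and 29.1 CPM in WT and 17.2, 18.5 and 17.8 in KO (−0.63, SE 0.07, edgeR adjusted p 0.000501). The noncoding RNA 5830416I19Rik, 76.1 kb away, was at 2.62, 2.9 and 3.5 CPM in WT and 0.33, 0.391 and 0.564 in KO, 14.2% of WT (−2.84, SE 0.26, edgeR adjusted p 6.75e-05). Both were lower in all 3 KO libraries.

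Several genes with no other called gene within 1 Mb were lower in the KO cells. Synj2, an inositol phosphatase gene, was at 21, 22.6 and 20 CPM in WT and 11.9, 11.9 and 12.8 in KO (−0.80, SE 0.08, edgeR adjusted p 9.87e-05). Ppic, which encodes cyclophilin C, was at 22.5, 20.1 and 22.1 CPM in WT and 11.7, 12.3 and 12.3 in KO (−0.84, SE 0.09, edgeR adjusted p 0.00032). Ddc, the gene of aromatic amino acid decarboxylase, was at 7.59, 8.45 and 8.77 CPM in WT and 3.57, 3.84 and 3.87 in KO (−1.14, SE 0.12, edgeR adjusted p 0.000357). The KO levels were 57.5, 56 and 45.5% of WT in that order. Cyth3, an exchange factor gene for ARF GTPases, was at 31.9, 29.6 and 34.8 CPM in WT and 22.1, 20.6 and 20 in KO (−0.62, SE 0.08, edgeR adjusted p 0.00181). All of these calls held in each of 16 alternative fits.

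Further genes called lower encode membrane proteins. Art2b, which encodes an ADP-ribosyltransferase on the T cell surface, was at 52.9, 52 and 55.8 CPM in WT and 36.9, 37.6 and 31.8 in KO (−0.60, SE 0.08, edgeR adjusted p 0.00266). Nrn1, which encodes the membrane-anchored protein neuritin, was at 45.2, 53.2 and 47.7 CPM in WT and 31.8, 21.3 and 22.5 in KO (−0.94, SE 0.15, edgeR adjusted p 0.0125). KO media 1 was the highest of the KO libraries for Nrn1 and still below every WT library. Tnfrsf25, the gene of death receptor 3, stood at 3.51 ± 0.32 CPM in WT and 1.63 ± 0.34 in KO (SD, n = 3 each, −1.08, edgeR adjusted p 0.0367). Gprc5b, an orphan G protein-coupled receptor gene, stood at 7.36 ± 0.86 and 3.45 ± 0.38 CPM (−1.09, edgeR adjusted p 0.00604). H2-Ob, which encodes the beta chain of H2-O, a modulator of peptide loading onto class II MHC, was at 10.5, 10.4 and 10.2 CPM in WT and 5.65, 7.31 and 6.13 in KO (−0.71, SE 0.13, edgeR adjusted p 0.0408). Class II MHC genes are read in B cells and dendritic cells. The marker sums given above are mostly Ighm and Itgax, so they say little about such cells. In the dendritic cell set the class II genes H2-Aa and H2-Ab1 overlapped between the genotypes. Cd74, not called, was at 2.15, 2.62 and 2.07 CPM in WT and 1.86, 1.88 and 1.26 in KO. The part of these cells in the H2-Ob value was not tested. In bulk RNA fewer cells of a type and less RNA per cell cannot be told apart.

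The remaining lower genes had regulatory and other roles. Bmf, which encodes a BH3-only protein that promotes apoptosis, was at 30.3, 23.2 and 24.8 CPM in WT and 14.1, 15.9 and 18.1 in KO (−0.71, SE 0.12, edgeR adjusted p 0.0248). It was the only call among 24 tested genes of apoptosis and survival. Ikzf2, which encodes the transcription factor Helios, was at 133, 137 and 144 CPM in WT and 94.7, 109 and 99.6 in KO (−0.45, SE 0.08, edgeR adjusted p 0.0408). This call was lost in 10 of 16 alternative fits. Helios is also made by regulatory T cells. The CD4 and regulatory T cell markers summed to 25.5 to 37.3 CPM in WT and 34 to 36.2 in KO. This sum is mostly Zbtb7b, at 18.9 to 32.7 CPM over the 6 libraries, so it says little about regulatory T cells. Foxp3 was at 4.23 CPM in WT media 3 and below 1 in the other libraries. The part of such cells in the Ikzf2 value was not tested. Gm28112 lies within Ikzf2 on the same strand and stood at 2.27 ± 0.52 CPM in WT and 0.83 ± 0.18 in KO (SD, n = 3 each, −1.44, edgeR adjusted p 0.0308). Trerf1, a transcriptional regulator gene, was at 14, 16.5 and 18.4 CPM in WT and 11, 9.71 and 11.1 in KO (−0.62, SE 0.10, edgeR adjusted p 0.0195).

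Dnah17, an axonemal dynein gene, was at 8.06, 9.64 and 8.97 CPM in WT and 5.68, 4.96 and 5.67 in KO (−0.71, SE 0.11, edgeR adjusted p 0.0141). Galnt9, a gene for an enzyme that starts O-linked glycans, stood at 3.29 ± 0.12 CPM in WT and 1.59 ± 0.25 in KO (SD, n = 3 each, −1.04, edgeR adjusted p 0.0203). The 5 genes nearest to the threshold on its other side were Galnt3 (0.38, edgeR adjusted p 0.0514), Pros1 (−0.40, edgeR adjusted p 0.0514), Tlr12 (−0.66, edgeR adjusted p 0.0982), Dynlt1c (0.34, edgeR adjusted p 0.101) and Ckb (−0.69, edgeR adjusted p 0.101). With the replicate number as a block Galnt3 (edgeR adjusted p 0.0267), Pros1 (0.0405), Dynlt1c (0.0363) and Ckb (0.0084) passed. Just inside it stood H2-Ob and Ikzf2.

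Of the 36 calls, 15 held in every one of 16 alternative fits and 19 were lost in at least 1, and no gene changed direction. Lost most often were Ikzf2 (10 fits), H2-Ob, Gm28112 and Hmgn5 (9 each), Trerf1 (8), Dnah17 (7), and Tnfrsf25 and Galnt9 (6 each). The 15 were Dock8, Erdr1, Gm47283, Wdfy1, Rab4a, Nnt, Synj2, Ppic, Ddc, Rell1, 5830416I19Rik, Cyth3, Gm16867, Gm27177 and Gm38378. Entpd4b and Gm37513 held in 15 of the 16 and had no value of their own in the fit that summed identical copies. There Gm38378 stood for the sum of Gm38378 and Gm37513. The count rose to 70 without WT media 1 and fell to 23 without KO media 2, and it was 19 without KO media 3 and WT gel 2, the libraries richest in ribosomal RNA-like loci. That last fit lost 18 of the 36 calls. Among them Ccr2 (edgeR adjusted p 0.054), Art2b (0.0577), Mid1 (0.054) and Tmem223 (0.0908) were lost in that fit alone.

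Genes that differ between mouse lines were examined because the labels name no strain. C57BL/6J mice are known to carry a deletion within Nnt that other C57BL/6 substrains lack. The list used held 12 tested genes with known differences among C57BL/6 substrains or other inbred lines. Of these, Nnt and Wdfy1 were higher in KO, Entpd4 and Entpd4b were lower, and 8 were not called. The list was made with these results known, so its count is no independent evidence. Mmrn1 gave 1.22 (SE 0.55, edgeR adjusted p 0.652) at under 1 CPM in every library. Herc2 gave 0.07 (SE 0.10), Cyfip2 0.05 (SE 0.11), Ide 0.08 (SE 0.07) and Casp4 −0.15 (SE 0.16). Pdzk1 and Adcy5 were below 0.4 CPM throughout. Gene-level counts show neither the strain of the mice nor a deletion of single exons.

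Few genes of the T cell function lists were called in media. The 34 gene lists also hold mouse line, stress and cell type marker genes. Over all lists 599 distinct genes were tested and 10 were called, 5 in each direction, against 36 of all 19010 tested genes (0.189%). Of the 10, 4 sit in the mouse line list and Dock8 is another. The unadjusted p was under 0.05 in 91 of the 599, against 1423 of the 19010. Both shares were higher in the lists, whose members were chosen with earlier results of these data known. Of 18 tested cytotoxic effector genes 0 were called and 1 had an unadjusted p under 0.05 (median 0.14). The perforin gene Prf1 was at 11.7, 9.29 and 5.34 CPM in WT and 12, 12.6 and 12.7 in KO (0.50, SE 0.24, edgeR adjusted p 0.67). WT media 3 was the low library there, as it was for the death ligand gene Fasl (0.50, SE 0.19, edgeR adjusted p 0.593). DESeq2 called 7 more list members, and limma-voom called 0 more. Among the 7 were Egr1 (0.85, DESeq2 adjusted p 0.00784), Il18r1 (0.40, 0.0107), Il4ra (−0.23, 0.013), Itga4 (−0.42, 0.045), Itgb3 (−0.28, 0.000314) and the mast cell marker Fcer1a, which had no WT count and at most 0.293 CPM in KO (DESeq2 adjusted p 0.0213).

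Among 23 genes for inhibitory receptors or T cell receptor responses 0 were called (4 at an unadjusted p under 0.05), with Egr1 at 48.6, 44.5 and 32.6 CPM in WT and 79.8, 72.9 and 73.3 in KO (0.85, SE 0.22, edgeR adjusted p 0.329). Egr2, like Egr1 a transcription factor gene switched on early by the receptor, gave 0.79 (SE 0.23, edgeR adjusted p 0.367). With the replicate number as a block both passed (0.87 and 0.80, edgeR adjusted p 0.0273 each). In gel both were called lower in KO, Egr1 at −1.31 (edgeR adjusted p 0.00355) and Egr2 at −0.88 (edgeR adjusted p 0.0279). Of 19 integrins and adhesion receptors 0 were called (4 at an unadjusted p under 0.05). Itga4, the α4 integrin gene, was at 599, 647 and 524 CPM in WT and 399, 521 and 396 in KO (−0.43, SE 0.11, edgeR adjusted p 0.264; with the block −0.43, edgeR adjusted p 0.0267). Of 23 cytokine receptor and STAT5 feedback genes 0 were called (6 at an unadjusted p under 0.05). Il18r1, a chain of the IL-18 receptor, was at 122, 125 and 136 CPM in WT and 171, 149 and 182 in KO (0.39, SE 0.09, edgeR adjusted p 0.164; with the block 0.39, edgeR adjusted p 0.0146).

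Of 24 naive and memory genes 0 were called and 9 had an unadjusted p under 0.05, with a median of −0.10. Of all 19010 tested genes 36 were called and 1423 had an unadjusted p under 0.05. Klf2, a transcription factor gene of resting T cells, was at 133, 126 and 169 CPM in WT and 112, 125 and 98.7 in KO (−0.35, SE 0.12, edgeR adjusted p 0.508). Lef1 gave −0.23 (SE 0.08, edgeR adjusted p 0.531). Of 37 interferon-stimulated genes 0 were called and 7 had an unadjusted p under 0.05, with a median of −0.16 against −0.01 over all tested genes. Irf7, the leading one by p, gave −0.30 (SE 0.09, edgeR adjusted p 0.4).

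No gene of the proliferation and stress lists was called. The 30 S phase genes had a median of 0.04 with 0 at an unadjusted p under 0.05, and the 30 G2 and M phase genes a median of −0.09 with 3. Of 25 p53 targets 3 had an unadjusted p under 0.05 (median 0.00), and Plk2 led by p (−0.48, SE 0.13, edgeR adjusted p 0.329). Of 18 genes of the nuclear lamina and LINC complex 3 had an unadjusted p under 0.05, with Lmna, the lamin A/C gene, at 5.19, 3.65 and 2.39 CPM in WT and 5.03, 6.09 and 5.28 in KO (0.54, SE 0.23, edgeR adjusted p 0.625). Unadjusted p was under 0.05 in 5 of 23 genes of the unfolded protein response and heat shock, in 3 of 20 ATF4 targets, in 0 of 24 genes of cholesterol synthesis and in 0 of 17 of glycolysis. The 15 mitochondrially encoded transcripts had a median of 0.29, with 1 at an unadjusted p under 0.05. In these KO media 2 stood apart, with mt-Co1 at 2650, 2760 and 2940 CPM in WT and 2760, 5930 and 3240 in KO.

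**Figure D4:**
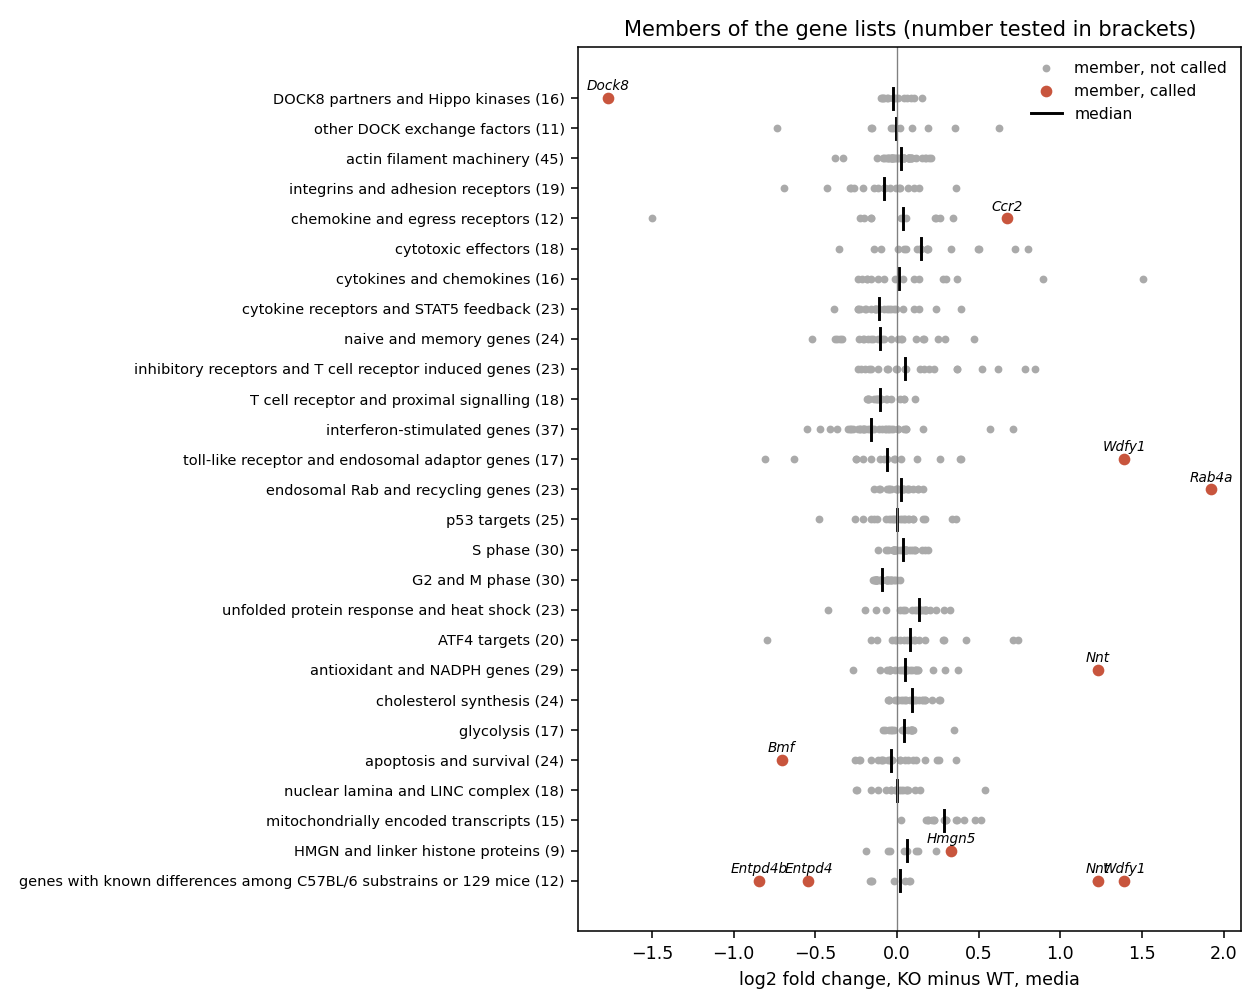
Log2 fold change, KO minus WT in media, of each tested member of the gene lists other than cell type markers, with the median of each list as a black line and called members named in red. The called members are single genes in their lists, apart from 4 in the list of known mouse line differences.

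The same genotype difference was measured in the libraries from collagen gel. The labels do not say whether gel and media libraries share mice, so these measurements may not be independent. There, 2819 of the 19010 genes were called between KO and WT (14.8%), and 28 of the 36 media genes were called in the same direction. Of the 5 media genes higher in KO, 3 were also higher in gel, and of the 31 lower, 25 were also lower. The KO gel libraries had counts for 29441 to 31254 gene symbols against 24336 to 25546 in WT gel, and the part of this in the gel calls was not tested. Dock8 gave −1.35 in gel (SE 0.09, edgeR adjusted p 8.44e-07). Erdr1 gave −5.99, Gm47283 −5.68, Rab4a 1.86, Wdfy1 1.29 and Nnt 1.03, each with the sign it had in media and called. All 8 genes of the chromosome 14 stretch were called lower in gel too.

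The 8 media genes without a call in gel were Ccr2, Hmgn5, Ikzf2, Gm28112, Dnah17, Cyth3, Plce1 and Galnt9. A direct test of the difference between the gel and the media effect called 636 of all tested genes (3.35%) and 5 of the 36. For Ccr2 the WT gel libraries stood at 166, 183 and 155 CPM and the KO gel libraries at 172, 183 and 180, so the genotypes overlapped there. The Ccr2 effect was 0.08 in gel against 0.67 in media, a difference of −0.59 (SE 0.13, edgeR adjusted p 0.0269). For Ikzf2 it was 0.03 in gel against −0.45 in media, a difference of 0.48 (SE 0.12, edgeR adjusted p 0.0369). Hmgn5, Dnah17 and Gm28112 were the other genes whose effect differed. For Cyth3, Plce1 and Galnt9 the difference did not pass (edgeR adjusted p 0.0664, 0.219 and 0.279). The Dock8 difference was 0.42 (SE 0.13, edgeR adjusted p 0.0854).

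**Figure D5:**
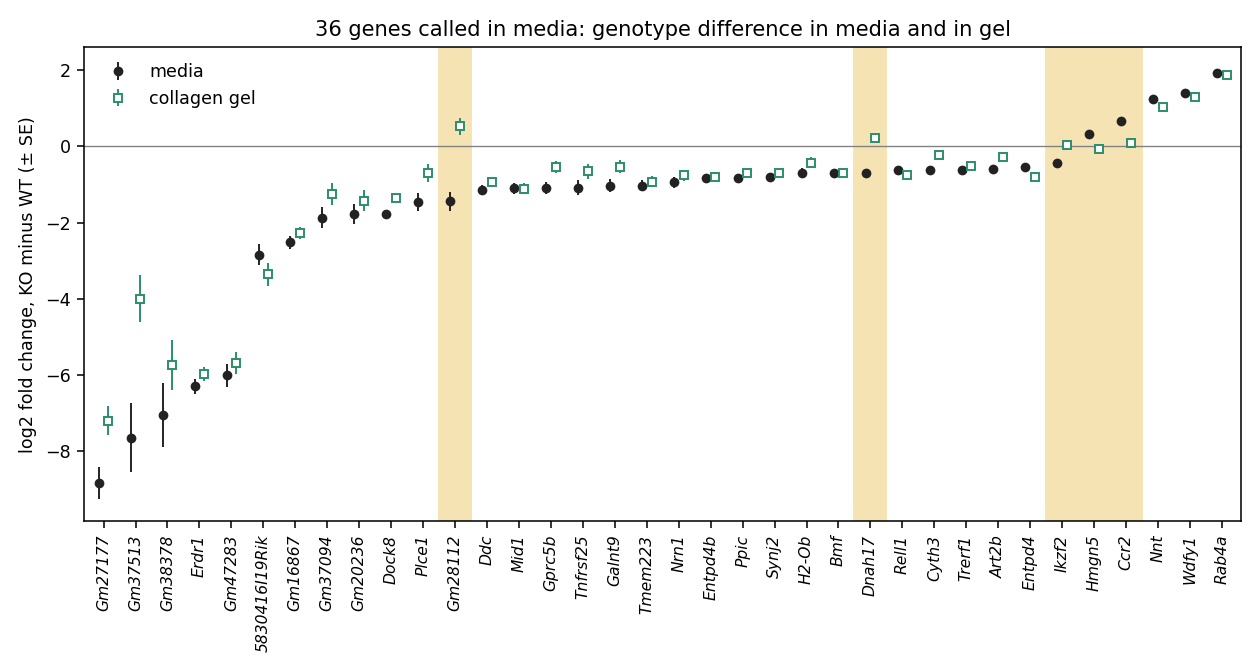
Log2 fold change, KO minus WT, with its standard error for the 36 genes called in media, in media (black circles) and in collagen gel (open squares). Shaded genes are the 5 whose effect differed between gel and media; the fitted values of Gm27177, Gm37513 and Gm38378 rest on 0 or 1 KO counts in media and are no bounds.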

How the data were processed

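The deposited table holds raw counts per gene symbol, made by the authors from 150 ng of RNA per library after ribosomal RNA depletion. The submitters' processing notes list HISAT2, featureCounts, SAMtools, Picard, FastQC and MultiQC, and the GRCm38 build, with no roles or order. The sources used here give no versions, annotation, strand setting or treatment of reads with several matches. Of 55291 symbols, 96.4% matched GENCODE M21 and 1084 more matched RefSeq GRCm38.p6 alone.

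Counts of all 12 libraries (4 groups of 3) were fitted together with edgeR 4.0.16 in R 4.3.3 (filterByExpr by group, TMM, robust quasi-likelihood F test), with contrasts KO minus WT in media, in gel, and their difference. A gene was called at an adjusted p (Benjamini-Hochberg, 19010 genes) under 0.05. A standard error is the absolute log2 fold change over the root of F. Levels are CPM on the TMM-scaled total. Alternatives used limma 3.58.1 (voom), DESeq2 1.42.0, other scalings, filters and library sets. The fit was tested on simulated data. Replicates differed by more than counting noise (chi-square per degree of freedom 27.9 to 167).

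The labels reuse replicate numbers 1 to 3 and do not say what a number shares. Over 9959 genes, deviations of same-numbered WT and KO media libraries correlated at 0.21, 0.161 and 0.379, all over 0.1. Differently numbered libraries gave −0.384 to 0.109, where WT media 1 with KO media 2, at 0.109, also exceeded 0.1. The main fit has no replicate block. An alternative fit took the numbers to pair libraries, which these values do not establish. The fit with a replicate block is given where it changes the call of a named gene or a count by over 1.5 times.

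Every called gene is named. Values in each library are given for the 12 smallest p and for calls whose mean log2 CPM reached 3, and for some others. Up to 4 members per list are named by p, though not all of them, and the DOCK and mouse line lists may be named in full. The members and the 34 lists were chosen with earlier results of these data known.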

Additional observations from a re-analysis of the deposited data

Results flagged for a closer look

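In 5 of the 36 genes the genotype effect differed between collagen gel and media by a test of the difference itself in edgeR's quasi-likelihood fit with Benjamini-Hochberg adjustment over all tested genes. The values are the effect in gel minus the effect in media, on the log2 scale. Dnah17 gave 0.92 (SE 0.16, adjusted p 0.0111): its KO libraries were below WT in media and at 11.5, 9.26 and 10 CPM in gel, against 8.14, 9.08 and 9.37 in WT gel. Gm28112, inside Ikzf2, gave 1.96 (SE 0.35, adjusted p 0.0119), and Ikzf2 gave 0.48 (SE 0.12, adjusted p 0.0369). Hmgn5 gave −0.42 (SE 0.08, adjusted p 0.0169), with 38.5, 40 and 41.3 CPM in KO gel and 43.6, 41.6 and 41.9 in WT gel. Ccr2 gave −0.59 (SE 0.13, adjusted p 0.0269). All 5 were chosen for their media values.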

How the results depend on the processing

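The 36 calls in media numbered 34 with DESeq2's size factors in edgeR, 34 with total counts, 37 with limma-voom, 31 without the KO gel libraries, 24 with the 6 media libraries alone and 33 with identical copies summed (chosen after seeing the data). They numbered 89 with DESeq2 (24 higher), 435 with no filter on low counts (178 higher), 57 with the replicate block and 19 without KO media 3 and WT gel 2. Leaving out 1 media library gave 23 (KO media 2) to 70 (WT media 1). The cause of these shifts was not tested.

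Called list members, 10, numbered 17 with DESeq2, 56 with no filter, 5 without KO media 3 and WT gel 2, and 6 to 12 with 1 media library left out. Media calls also called in gel, 28, numbered 52 of 89 with DESeq2 and 180 of 435 with no filter. Calls near Dock8, 0 within 10 Mb, were 1 with no filter and 2 within 20 Mb; leaving out 1 media library gave 0 each time. Calls in the chromosome 14 stretch, 8, were 5 with the media libraries alone and 5 to 8 with 1 media library left out. Dock8 was called in every fit, at −1.84 to −1.70. With the replicate block, the main calls were all kept; named genes that gained a call were Itga4, Ccr9, Il18r1, Egr1, Egr2, Galnt3, Pros1, Dynlt1c and Ckb. The number of libraries, 3 per group, limits every value, and low counts also limit genes such as Gm38378 and Gm37513, with 55 and 83 WT counts in media. The effect of depth was not tested.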
